A study of Mus musculus with 8 samples.

Results

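The genes described here are 5 genes of Notch signalling: the receptors Notch1 and Notch2, the ligand Dll1, and the target genes Hes1 and Hey1. They were chosen by name, and all probe sets annotated to them were taken, which gave 8 of the 12488 probe sets on the array, for 5 of the 8252 genes that have a probe set of their own. Notch1, Notch2 and Dll1 each had 2 probe sets, and Hes1 and Hey1 had 1 each. Of the 8 probe sets, 7 passed the filter on low signal and were tested. The RNA came from neurosphere cells, which are neural stem and progenitor cells grown as floating clusters, and every culture was started from embryonic day 14.5 mouse forebrains isolated individually. Every group carried a bcl2 transgene, which codes for an inhibitor of apoptosis, and the promoter that drives it is not given in the sources used here. In the AzaC/TSA group the cells received 500 nM 5-aza-2'-deoxycytidine (AzaC), an inhibitor of DNA methyltransferases, together with 150 nM trichostatin A (TSA), an inhibitor of histone deacetylases. Other cells received 150 nM TSA alone or 500 nM AzaC alone, and the rest were left untreated. Treatment lasted 2 days, and each of the 4 groups had 1 array in experiment 2 and 1 in experiment 1, 8 arrays in all. The question that this design puts to these genes is whether their transcript levels differ after inhibition of histone deacetylation, of DNA methylation, or of both.

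Notch receptors sit in the cell membrane and are activated by ligands such as Dll1 on a neighbouring cell. The receptor is then cut, and its intracellular part enters the nucleus, where it joins the DNA-binding protein Rbpj and switches on target genes such as Hes1 and Hey1. The Hes and Hey proteins repress proneural genes, and in the embryonic forebrain this keeps neural progenitors from becoming neurons. Without the intracellular part of the receptor, Rbpj recruits corepressors that include histone deacetylases.

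AzaC inhibits the enzymes that methylate cytosines, and methylated cytosines in mammals lie mostly in the dinucleotide CG. For this reason the bases just before the gene start are shown for the members that had an entry. The windows are the 250 bases before the start in RefSeq, build GRCm38.p6, written 5′ to 3′ along the gene's strand, with each CG in capitals. Notch1, Notch2 and Dll1 had an entry. The Notch1 window is chr2:26503823-26504072, minus strand, the Notch2 window chr3:98013288-98013537, plus strand, and the Dll1 window chr17:15376933-15377182, minus strand.
Notch1: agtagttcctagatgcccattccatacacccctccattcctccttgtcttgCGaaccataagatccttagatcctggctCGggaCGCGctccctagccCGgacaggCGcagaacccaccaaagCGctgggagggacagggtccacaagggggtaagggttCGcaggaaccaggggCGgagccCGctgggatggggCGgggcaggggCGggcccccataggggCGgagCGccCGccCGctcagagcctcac
Notch2: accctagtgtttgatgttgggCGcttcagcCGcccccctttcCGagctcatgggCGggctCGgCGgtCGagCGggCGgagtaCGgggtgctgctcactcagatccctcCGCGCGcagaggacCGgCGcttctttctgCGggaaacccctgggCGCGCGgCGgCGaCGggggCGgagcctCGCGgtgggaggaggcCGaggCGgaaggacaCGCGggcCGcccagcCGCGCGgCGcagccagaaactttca
Dll1: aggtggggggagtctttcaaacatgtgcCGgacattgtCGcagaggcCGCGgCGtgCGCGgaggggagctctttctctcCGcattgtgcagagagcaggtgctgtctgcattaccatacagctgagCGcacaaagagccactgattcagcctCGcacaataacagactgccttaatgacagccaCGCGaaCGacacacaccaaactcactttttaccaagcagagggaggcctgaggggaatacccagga
The Notch2 window held 34 CG and the Notch1 window 16, and the Dll1 window held 13. The median over all 32851 windows of the same length was 6. A second Dll1 window, before a start further into the gene, held 21. The core letters bound by Rbpj, TGGGAA, were found on neither strand of these 4 windows, and 21.6% of all windows hold them on at least 1 strand. The letters CACNAG, bound by Hes proteins, occurred 1 time on the forward strand of the Notch1 window and 1 time on the reverse strand of the Notch2 window, and 36.7% of all windows hold them. A match is a description of these letters only, and no methylation was measured in these samples.

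Values are signal intensities that the authors had scaled, since every deposited array has the same trimmed mean. Array medians lay between 59.2 and 72.7. A signal of 20.01 (10% of the trimmed mean) was used as a floor, and probe sets that reached 50.03 on at least 2 arrays were tested. Markers of neural progenitors were bright, with Sox2, a transcription factor of neural stem cells, at 2391 to 4830.4 over the 8 arrays, and 4 of the 7 progenitor markers on the array reached 50.03 in the untreated mean. Vim, Msi1 and Prom1 did not. The summed signal of these 7 markers was 5618 to 12624 on the 4 TSA-exposed arrays and 14238 to 16928 on the 4 arrays without TSA. Fabp7, a lipid-binding protein made by radial glia, had 1063 to 5499 on TSA-exposed arrays and 7830 to 10920.1 on the others. Without Fabp7 the sum was 4555 to 7124 with TSA and 5790.1 to 6408 without, which overlapped, as did the other 5 tested markers of this list. None of the 8 endothelial and pericyte markers reached 50.03 in the untreated mean, and their summed signal was 144 to 188 with TSA and 154 to 249 without. Of all tested probe sets, 23.5% separated the TSA-exposed arrays from the others without overlap. Of the 7 neuronal markers, all tested, 3 were higher on every TSA-exposed array than on any other, 1 was lower and 3 overlapped. The 3 higher were Snap25 (252 to 615 with TSA, 4.3 to 31.8 without), Syp (79.2 to 108 with TSA, 6.7 to 50.1 without) and Stmn2 (126 to 210.3 with TSA, 56.0 to 78.4 without), and the lower one was Tubb3 (834 to 1486 with TSA, 1635 to 2376 without). Their sum was 1741 to 2566 with TSA and 2081 to 2852 without, and without Tubb3, the brightest, 684 to 1185 with TSA and 349 to 476 without. The 5 astrocyte markers summed to 775 to 1413 with TSA and 1321 to 4066 without. Without Aldoc, the brightest, the sum was 413 to 1094 with TSA and 615 to 1413 without. S100b was lower on every TSA-exposed array (59.7 to 104.2) than on any other (128 to 219.9), and the other 3 tested astrocyte markers overlapped. The 6 fibroblast and meninges markers summed to 491.4 to 634.6 with TSA and 482.2 to 694.8 without. Of these, Dcn had 43.2 to 78.3 with TSA and 7.0 to 34.7 without, and the other 3 tested overlapped. The 5 oligodendrocyte markers summed to 157.2 to 210 with TSA and 101 to 237.5 without. The 6 microglia and macrophage markers summed to 279 to 579 with TSA and 163 to 392 without. Among them Cd68, a lysosomal protein, had 167 to 474 with TSA and 30.0 to 53.0 without. Ptprc, the pan-leukocyte antigen, lay under the floor on all 8 arrays. Without Cd68 the microglia and macrophage sum was 104.8 to 175.3 with TSA and 121.5 to 361.9 without. In whole cultures, fewer cells of a type and less RNA per cell cannot be told apart, and the part of these marker differences in the results below was not tested.

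**Figure D1:**
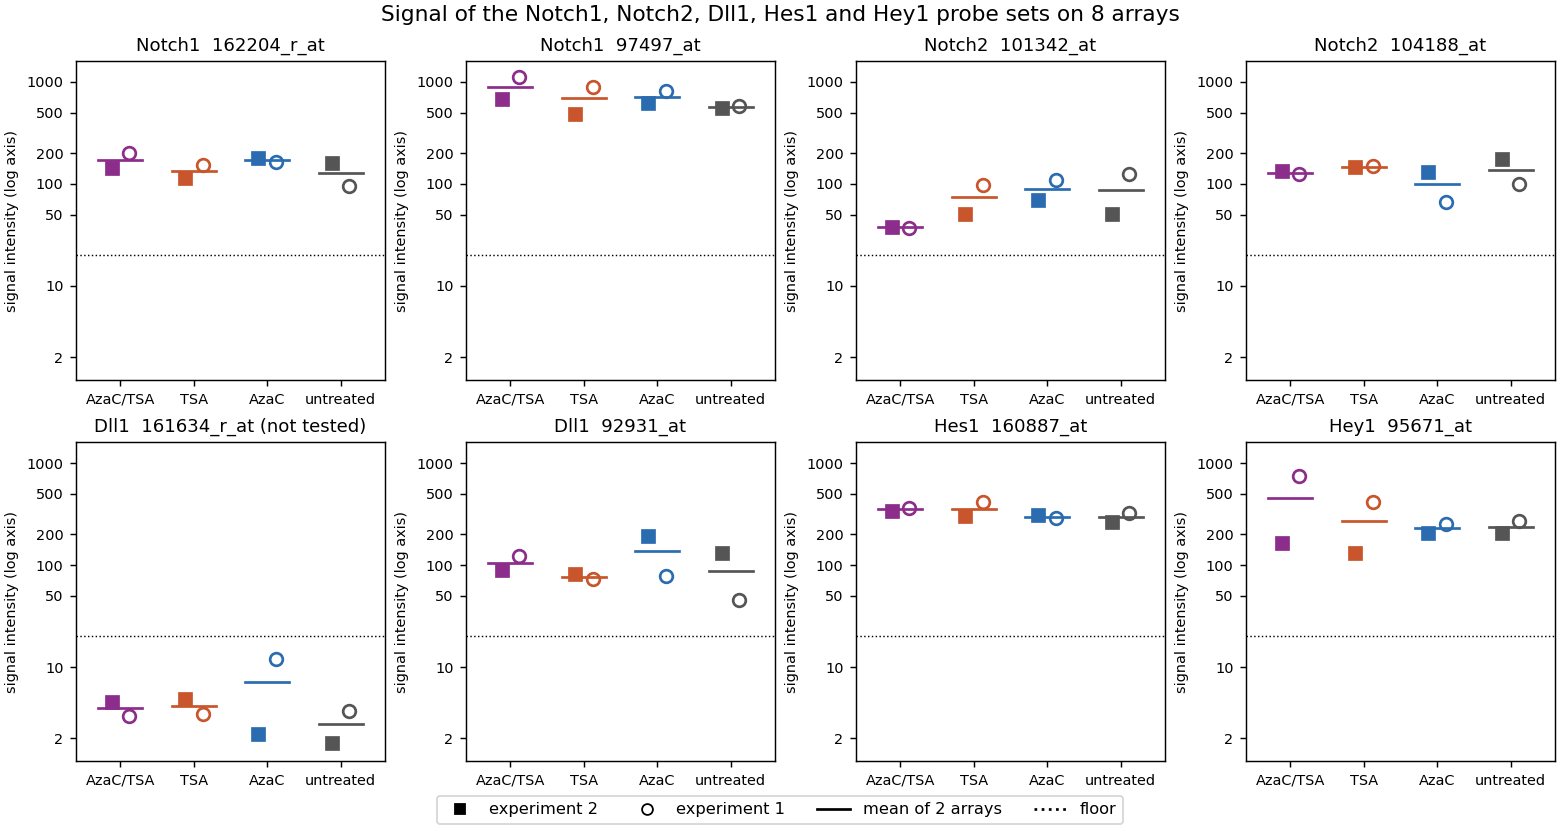
Signal intensity (log axis) of the 8 probe sets on the 8 arrays, by treatment group. Squares are experiment 2, open circles experiment 1, bars the mean of 2 arrays, and the dotted line the floor of 20.01. Hey1 spans 131 to 746, with its highest signal on the AzaC/TSA array of experiment 1, and 1 Dll1 probe set lies under the floor on all 8 arrays.

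No probe set of the 5 genes passed the test for a change after any treatment. In AzaC/TSA against untreated cells, 0 of the 7 passed an adjusted p of 0.05 (limma, Benjamini-Hochberg over 7987 probe sets), where 3.12% of all tested probe sets did. In TSA against untreated cells 0 of 7 passed, against 5.02% of all, and in AzaC/TSA against AzaC cells 0 of 7, against 2.79%. With the 4 TSA-exposed arrays pooled against the 4 others, 0 of 7 passed and 14.5% of all did. AzaC called none of the 7987 probe sets tested. That is, 0% of them passed in AzaC against untreated cells, AzaC/TSA against TSA cells, the AzaC by TSA interaction and the pooled AzaC comparison. Without the filter on low signal, 13, 11, 11 and 17 of 12422 probe sets passed, in the same order. At an unadjusted p under 0.05, 175, 185, 142 and 203 of the 7987 probe sets stood in those 4 comparisons, none of them from the 5 genes. The 7 probe sets also gave 0 at an unadjusted p under 0.05 in each of the 4 comparisons of TSA above, where 17.6%, 20.8%, 18.1% and 29.6% of all tested probe sets stood, in the order given. Those unadjusted counts are from the fit without the experiment number. With the experiment as a block, 0 of 7 passed in the 4 comparisons of TSA, against 9.34%, 12.2%, 9.32% and 23.9% of all. The lowest adjusted p of the 7 were then 0.158, 0.527, 0.137 and 0.151 (limma). These comparisons share arrays with each other. A p that misses the threshold does not show equal levels. Without the block, the 95% interval of the TSA change reached a factor of 1.55 to either side of the Hes1 estimate. For Hey1 it reached a factor of 3.03. The SE of that Hey1 change was 0.71 without the block and 0.44 with it.

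Notch1 is the receptor whose brighter probe set (97497_at) had its highest mean signal under combined treatment. It had 674 in experiment 2 and 1124 in experiment 1 in AzaC/TSA cells, 489 and 887 in TSA cells, 626 and 811 in AzaC cells, and 556 and 579 in untreated cells. By mean the order was AzaC/TSA, AzaC, TSA and untreated, and each neighbour overlapped the next. The log2 change was 0.62 (SE 0.36, adjusted p = 0.417) in AzaC/TSA against untreated cells, 0.21 (SE 0.36, adjusted p = 0.789) in TSA against untreated cells and 0.33 in AzaC against untreated cells. The second Notch1 probe set (162204_r_at) had 144 and 202 in AzaC/TSA cells, 114 and 154 in TSA cells, 179 and 164 in AzaC cells, and 161 and 95.5 in untreated cells, in experiments 2 and 1. By mean log2 signal its order was AzaC, AzaC/TSA, TSA and untreated, and each neighbour overlapped the next. AzaC and AzaC/TSA cells were nearly level, with mean signals of 171 and 173. The 2 AzaC arrays were above the 2 TSA arrays. Its log2 change in AzaC/TSA against untreated cells was 0.46 (SE 0.38, adjusted p = 0.589).

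Notch2, the second receptor, gave 2 probe sets that did not move together. The brighter (104188_at) had 134 and 124 in AzaC/TSA cells, 145 and 151 in TSA cells, 131 and 66.8 in AzaC cells, and 175 and 99.9 in untreated cells, in experiments 2 and 1. All neighbouring groups overlapped, and the log2 change in AzaC/TSA against untreated cells was -0.04 (SE 0.43, adjusted p = 0.980). The other Notch2 probe set (101342_at) had 38.2 and 37.4 in AzaC/TSA cells, 51.3 and 96.6 in TSA cells, 68.9 and 110 in AzaC cells, and 50.7 and 126 in untreated cells. Both AzaC/TSA arrays lay under every other array of this probe set. Its log2 change was -1.08 (SE 0.56, adjusted p = 0.358) in AzaC/TSA against untreated cells, the largest in size among the 7 probe sets in that comparison. With TSA pooled over AzaC the log2 changes of the 2 Notch2 probe sets were 0.31 (SE 0.30, adjusted p = 0.541) for 104188_at and -0.69 (SE 0.40, adjusted p = 0.285) for 101342_at, opposite in sign.

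Dll1, the ligand, was measured by 1 usable probe set (92931_at). Its signal was 88.9 in experiment 2 and 122 in experiment 1 in AzaC/TSA cells, 81.3 and 72.9 in TSA cells, 195 and 78.2 in AzaC cells, and 131 and 45.1 in untreated cells. By mean log2 signal the order was AzaC, AzaC/TSA, TSA and untreated. The 2 AzaC/TSA arrays were above the 2 TSA arrays, and the other neighbours in that order overlapped. Dll1 had the largest log2 change among the 7 in AzaC against untreated cells, 0.69 (SE 0.60, adjusted p = 1.00). In TSA against untreated cells it was 0.00 (SE 0.60, 95% interval -1.34 to 1.35), from differences of opposite sign in the 2 experiments. The other Dll1 probe set (161634_r_at) lay between 1.8 and 12.1 on all 8 arrays, under the floor, and was not tested.

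Hes1, the repressor that Notch activates in neural progenitors, had the smallest standard error of the 5 in the treatment comparisons without a block for experiment. It had 343 and 359 in AzaC/TSA cells, 303 and 414 in TSA cells, 307 and 290.2 in AzaC cells, and 263 and 325 in untreated cells, in experiments 2 and 1. The 2 AzaC/TSA arrays were above the 2 AzaC arrays, and the other neighbours overlapped. TSA gave a positive log2 difference of 0.16 to 0.35 in each of the 4 pairings with and without AzaC within an experiment. Pooled, the log2 change was 0.25 (SE 0.20, adjusted p = 0.433).

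Hey1, a repressor related to Hes1, had the largest standard error of the 5 in the same comparisons. Its signal was 165 in experiment 2 and 746 in experiment 1 in AzaC/TSA cells, 131 and 412 in TSA cells, 204.5 and 255 in AzaC cells, and 206 and 270 in untreated cells. The TSA-exposed arrays held both the 2 highest and the 2 lowest Hey1 signals, so the groups overlapped. The log2 change was 0.57 (SE 0.71, adjusted p = 0.742) in AzaC/TSA against untreated cells and -0.02 (SE 0.71, adjusted p = 0.991) in TSA against untreated cells.

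**Figure D2:**
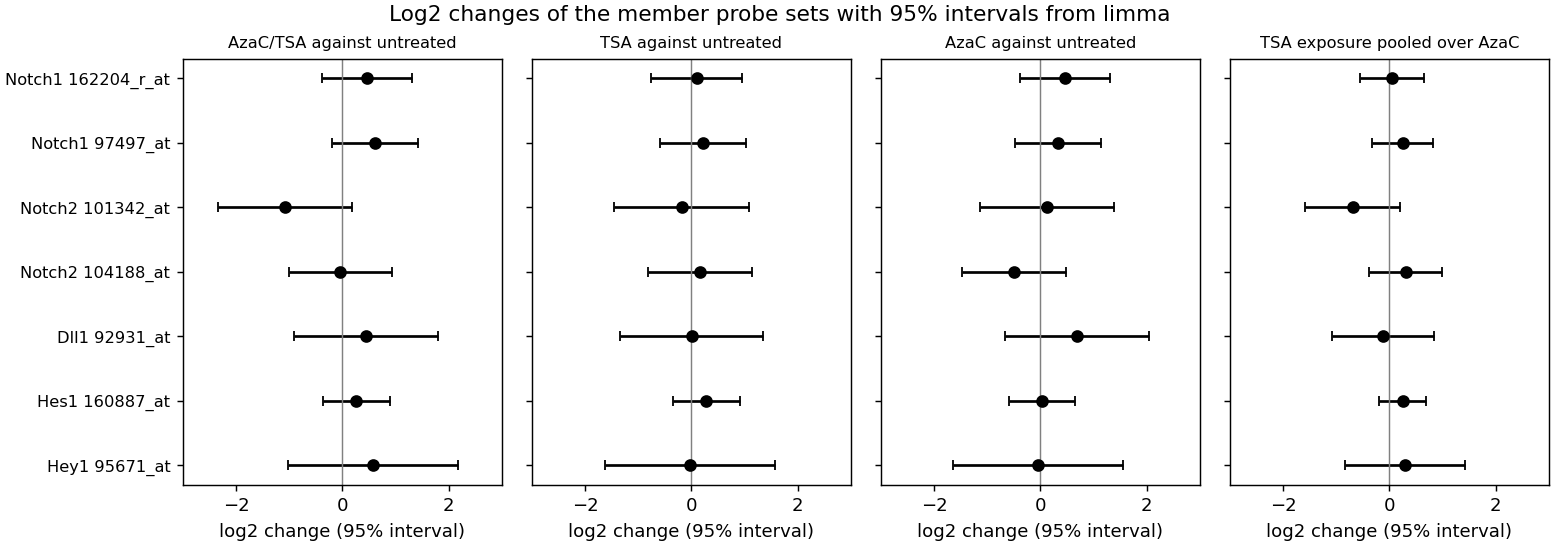
Log2 changes of the 7 tested probe sets with 95% intervals from limma, in 4 comparisons, from the fit without the experiment as a block. Every interval spans 0. The intervals of Hes1 are the narrowest and those of Hey1 the widest.

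Hey1 differed by more between the 2 experiments, in size, than with any treatment. All 4 arrays of experiment 2 had less Hey1 signal than every array of experiment 1, and the log2 difference of experiment 2 from experiment 1, with treatment group in the fit, was -1.14 (SE 0.31, 95% interval -1.83 to -0.44, adjusted p = 0.074). Of the 7 probe sets, 1 did not overlap between experiments, against 7.83% of all tested probe sets. The difference was not even over groups: it was -2.18 in AzaC/TSA cells, -1.65 in TSA cells, -0.32 in AzaC cells and -0.39 in untreated cells. Notch1 (97497_at) differed by -0.51 (SE 0.17, adjusted p = 0.132). Hey1 and Notch1 (97497_at) had unadjusted p under 0.05, 2 of 7 against 20.6% of all tested probe sets, and 0 of the 7 probe sets passed the adjusted threshold, against 4.22% of all. No probe set of the 5 genes separated the 4 TSA-exposed arrays from the 4 others without overlap, where 23.5% of all tested probe sets did.

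For Hey1 and for Dll1, the TSA differences had one sign in experiment 2 and the opposite sign in experiment 1. For Hey1, TSA minus untreated was -0.65 on the log2 scale in experiment 2 and 0.61 in experiment 1, and AzaC/TSA minus AzaC was -0.31 in experiment 2 and 1.55 in experiment 1. For Dll1 the differences were -0.68 and -1.13 in experiment 2 and 0.69 and 0.64 in experiment 1, in the same order of pairs. The second Notch1 probe set (162204_r_at) had -0.50 and -0.31 in experiment 2 and 0.69 and 0.30 in experiment 1. Such opposite signs occurred in 3 of the 7 probe sets and in 8.98% of all tested probe sets. A fit with a TSA-by-experiment term, added after these differences were seen, gave a log2 difference between experiments of -1.56 for Hey1 (SE 0.35, adjusted p = 0.299), -1.58 for Dll1 (SE 0.51, adjusted p = 0.409) and -0.90 for the second Notch1 probe set (SE 0.43, adjusted p = 0.546). None of the 7 passed, against 0.0751% of all probe sets, and Hey1 and Dll1 had unadjusted p under 0.05, 2 of 7 against 799 of all 7987. Each difference within an experiment rests on 1 array against 1. The 5′ to 3′ signal ratio of beta-actin, a measure of RNA integrity, was 0.332 to 0.398 in experiment 2 and 0.290 to 0.471 in experiment 1, and its part in these differences was not tested.

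**Figure D3:**
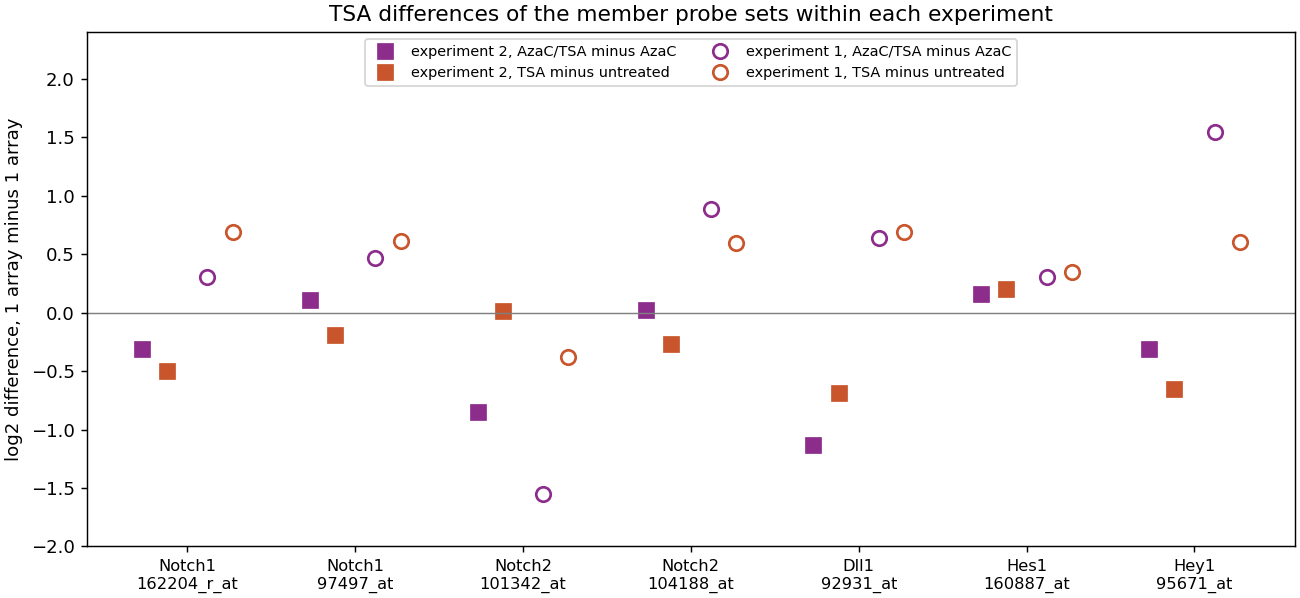
TSA differences of the 7 tested probe sets within each experiment, as log2 differences of 1 array minus 1 array. Filled squares are experiment 2 and open circles experiment 1. Hey1, Dll1 and Notch1 162204_r_at lie below 0 in experiment 2 and above 0 in experiment 1, while all 4 Hes1 differences lie between 0.16 and 0.35.

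Around these 5 genes, 79 pathway genes were listed in 8 groups by role, of which 51 were on the array and 40 were tested, the 5 included, each by its brightest probe set. With TSA pooled over AzaC, 6 of the 40 (15%) changed, 1 up and 5 down, against 15.5% of all 6011 genes tested. The median log2 change of the 40 was 0.01, and that of all genes -0.02. The share of pathway genes called was near that of all genes. For 9 of the 40 (22.5%) the TSA-exposed arrays and the others did not overlap, against 23.5% of all tested probe sets. In TSA against untreated cells 1 of the 40 changed, against 5.62% of all genes, and in AzaC/TSA against untreated cells 0 of 40, against 3.41%. In AzaC/TSA against AzaC cells 0 of 40 changed, against 3.18%, and in the 4 comparisons of AzaC and its interaction 0 of 40 did. At an unadjusted p under 0.05, 8 of 40 stood in AzaC/TSA against untreated cells (19.0% of all genes), 13 of 40 in TSA against untreated cells (22.0% of all), 6 of 40 in AzaC/TSA against AzaC cells (19.3% of all) and 14 of 40 in the pooled TSA comparison (31.4% of all). There were 1 in AzaC/TSA against TSA cells, 1 in the interaction, and 0 in AzaC against untreated cells and in the pooled AzaC comparison, where 1.65% to 2.31% of all genes stood.

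Among genes of receptor cleavage and glycosylation, 1 of the 8 tested changed with TSA, against 15.5% of all genes. Lfng, a glycosyltransferase that modifies Notch receptors and alters their response to ligands, had 12.8 and 37.7 in AzaC/TSA cells and 15.8 and 9.4 in TSA cells, against 94.4 and 105 in AzaC cells and 63.4 and 81.8 in untreated cells, in experiments 2 and 1. All TSA-exposed arrays were below all others, and 3 of them were under the floor. With TSA Lfng fell by 1.85 on the log2 scale, from floored values (SE 0.35, adjusted p = 0.0107). The log2 change was -1.08 with a floor at 20% of the trimmed mean and -2.37 with a floor at 2.5%. In TSA against untreated cells its adjusted p was 0.0739, and 0.0397 with the experiment as a block.

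Among the corepressors, 2 of the 9 tested fell with TSA and 0 rose past the threshold, where 15.5% of all genes changed. Ctbp1 had 466 and 679 in AzaC/TSA cells and 485 and 494 in TSA cells, against 854 and 1109 in AzaC cells and 1163 and 980 in untreated cells. Its log2 change was -0.96 (SE 0.19, adjusted p = 0.0128). Ctbp2, its paralog, had 322 and 352 in AzaC/TSA cells and 189 and 247 in TSA cells, against 366 and 351 in AzaC cells and 548 and 526 in untreated cells. For Ctbp2 the pooled log2 change was -0.70 (SE 0.18, adjusted p = 0.0362), with its lowest signals under TSA alone, where it was also the 1 pathway gene past the threshold against untreated cells (-1.31, SE 0.26, adjusted p = 0.0262). The other Ctbp2 probe set (160979_at) also fell (-0.97, adjusted p = 0.017). CtBP proteins bind repressors and recruit histone-modifying enzymes. Of the 9 corepressors, 3 had a pooled log2 change above 0. Sin3a was higher on every TSA-exposed array (354 to 534) than on any other (243 to 339), and did not pass.

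Of the 5 turnover genes tested, Itch was the 1 that fell, where 15.5% of all genes changed. It codes for a ubiquitin ligase that acts on Notch, and its signals were 195 and 192 in AzaC/TSA cells and 203 and 209 in TSA cells, against 285 and 324 in AzaC cells and 333 and 365 in untreated cells, with no overlap. Its log2 change was -0.71 (SE 0.19, adjusted p = 0.0360). Of the 4 proneural basic helix-loop-helix genes tested, 1 rose and 1 fell, against the same 15.5% of all genes. Neurod1, a driver of neuronal differentiation, had 88.7 and 58.6 in AzaC/TSA cells and 98.9 and 66.7 in TSA cells, against 36.8 and 14.0 in AzaC cells and 33.6 and 24.9 in untreated cells. Its log2 change was 1.45 from floored values (SE 0.37, adjusted p = 0.0343), with 1 AzaC array under the floor, and 0.93 with a floor at 20%. Tcf12, a partner of proneural proteins, had 911 and 1290 in AzaC/TSA cells and 719 and 1034 in TSA cells, against 1365 and 1725 in AzaC cells and 1808 and 1902 in untreated cells. Its log2 change was -0.80 (SE 0.20, adjusted p = 0.0296). Beside Neurod1, the neuronal markers Snap25, Syp and Stmn2 were higher on every TSA-exposed array, and Tubb3 was lower by its brighter probe set. Their values are given above, and their part in the Neurod1 change was not tested. None of the 3 receptors, 2 ligands, 5 genes of the nuclear activation complex and 4 Hes and Hey genes tested passed in the pooled TSA comparison. The genes with the smallest p of these lists in TSA against untreated cells did not pass there either. They were Notch1 among the receptors, given above, Dlk1 among the ligands (1.04, SE 0.83, adjusted p = 0.545), Kat2b, a histone acetyltransferase, in the activation complex (-0.94, SE 0.34, adjusted p = 0.158), and Hes6 among the Hes and Hey genes (0.69, SE 0.59, adjusted p = 0.575).

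Each of these 6 changes had the same sign in both experiments. The number past the threshold, counted over all 40 pathway genes and so at times with genes other than these 6, depended on single arrays. It was 1 without the untreated array of experiment 2, 2 without the TSA array of experiment 2 or the AzaC or untreated array of experiment 1, and 3 without the TSA array of experiment 1 or either AzaC/TSA array. Without the AzaC array of experiment 2 it was 5. Lfng passed under all 18 alternatives that could be run for it and Ctbp1 under 18 of 19. Tcf12 missed the threshold under 7 of 19, Itch under 9 of 19, Neurod1 under 9 of 18 and Ctbp2 under 10 of 19. In TSA against untreated cells Ctbp2 missed it under 6 of 20, which include each TSA or untreated array left out, with an adjusted p of up to 0.160. With the experiment as a block, Numb, an inhibitor of Notch (1.03, adjusted p = 0.0392), and Tcf4, another partner of proneural proteins (-0.69, adjusted p = 0.0095), joined them, 8 of 40 against 25.7% of all genes. With that block, 5 of the 40 fell in TSA against untreated cells (Ctbp1, Ctbp2, Lfng, Tcf12 and Tcf4), against 13.2% of all genes. The block also called 2 in AzaC/TSA against untreated cells (Ctbp1 and Tcf12, both lower), against 10.3% of all genes, and 1 in AzaC/TSA against AzaC cells (Lfng, lower), against 10.3%. Between experiments, 1 of the 40 differed, against 4.41% of all genes: Tcf4 was lower in experiment 2 (-0.64, SE 0.15, adjusted p = 0.0467), and missed the threshold under 9 of 18 alternatives, among them each AzaC/TSA, TSA and AzaC array left out. Dlk1, a Delta-like protein, was singled out after its values were seen. As for Hey1, all its arrays of experiment 2 lay below all of experiment 1. The gap was narrow for Dlk1, with a highest signal of 82.3 in experiment 2 and a lowest of 83.6 in experiment 1. Of the 40 genes, these 2 (5%) did not overlap between experiments, against 7.83% of all tested probe sets. Dlk1 had 75.1 in experiment 2 and 358 in experiment 1 in AzaC/TSA cells, 82.3 and 383 in TSA cells, 71.9 and 83.6 in AzaC cells, and 66.8 and 112 in untreated cells. Its difference between experiments was -1.36 (adjusted p = 0.069).

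**Figure D4:**
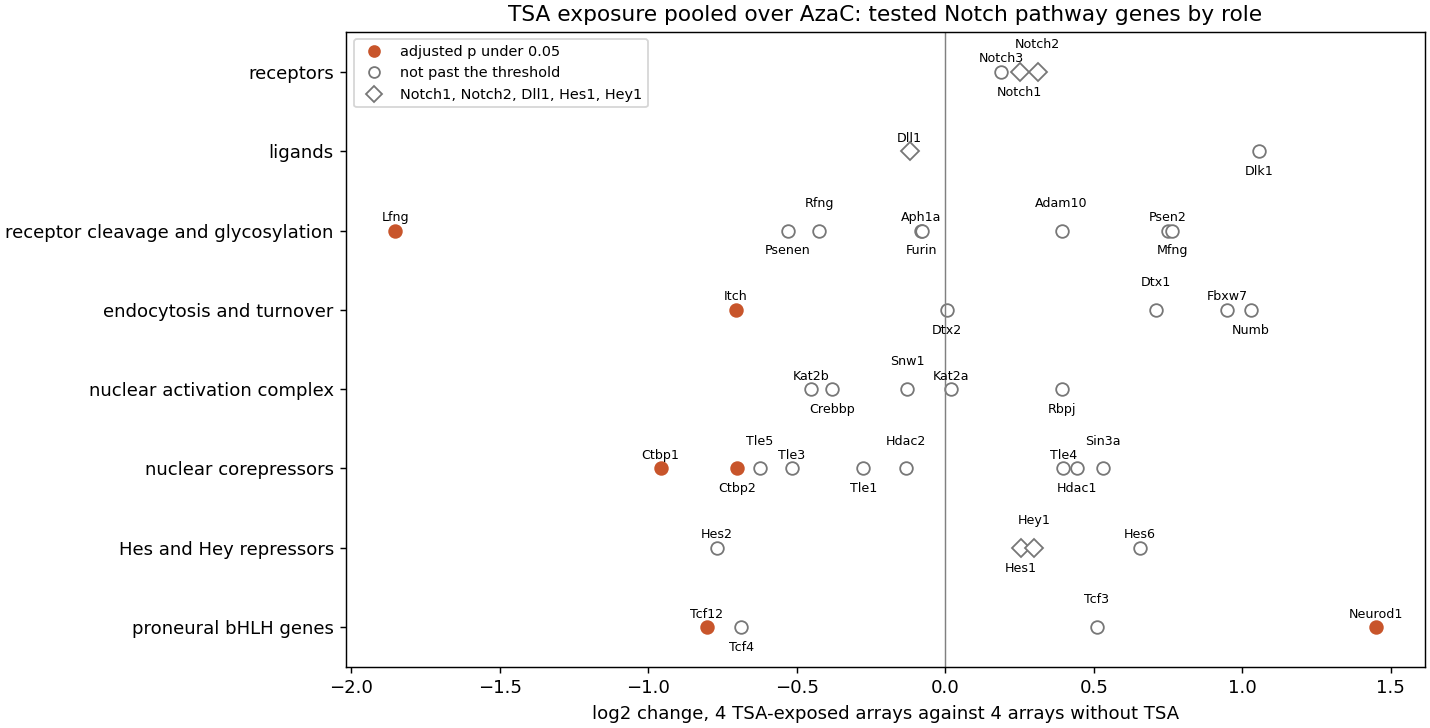
Log2 change with TSA pooled over AzaC (4 arrays against 4) for the 40 tested pathway genes, by role. Filled points are the 6 genes with an adjusted p under 0.05, and diamonds are the 5 genes of interest, which lie between -0.12 and 0.31.

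The genes most like each of the 5 over the 8 arrays were found from the root-mean-square difference of mean-centred log2 signals among 5112 genes above the floor on every array. For Notch1 (97497_at) they were Pea15a at 0.10, 2810025M15Rik at 0.15 and Nptx2 at 0.16, where the median of all genes was 0.56. For Notch2 (104188_at) they were Gcdh at 0.16, Tapbp at 0.17 and Pex5 at 0.17, with a median of 0.58. For Dll1 they were Bnip3 at 0.23, Gfus at 0.27 and Dcps at 0.28, with a median of 0.72. For Hes1 they were Tmub2 at 0.08, Mettl8 at 0.11 and Mtif2 at 0.11, with a median of 0.44. For Hey1 they were Fam20c at 0.23, 2210016F16Rik at 0.30 and Zfp36l1 at 0.31, with a median of 0.86. No other gene of the pathway lists was among them, and the arrays compared are the same 8 throughout.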

How the data were processed

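RNA from 8 neurosphere cultures was measured on oligonucleotide arrays. The deposited values are signal intensities on a linear scale, 1 column per array, and every array has a 2% trimmed mean of 200.1. No source used here states the software or the scaling steps. Of 12488 probe sets, 66 controls were left out, 10855 had 1 gene symbol, 396 several and 1237 none. Signals were floored at 20.01 and put on the log2 scale. The 7987 probe sets (64.3%) at 50.03 on at least 2 arrays were fitted with limma 3.58.1 (R 4.3.3), with an intensity trend and 1 mean per group, and p-values were adjusted over all of them. Each gene of a list was represented by its brightest probe set. Residual degrees of freedom were 4, and the array number limits the precision.

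The experiment number comes from the sample titles, which mark a shared experiment, and deviations of same-numbered arrays correlated at 0.203 to 0.411 over 6 pairs of groups. The fit with the experiment as a block was therefore run throughout. On simulated data for TSA against untreated cells (200 of 7987 probe sets changed), 8.81% of log2 changes of 1, 77.0% of 2 and 96.1% of 4 were recovered, with 5.29% false calls. The changed probe sets all had an untreated log2 mean more than 2 above the floor, and the simulated arrays shared no experiment effect. The rates therefore do not cover dimmer probe sets, such as that of Neurod1, or the correlation within experiments. Members and lists were chosen with earlier results of these data known. Pathway genes were named where they passed the threshold or, where none of a list passed, for the smallest p in TSA against untreated cells, and Dlk1 between experiments after its values were seen. Also named were the 3 most alike genes per member by root-mean-square difference. Alternatives covered the floor, filter, scaling, fit, probe set choice and each array left out.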

Additional observations from a re-analysis of the deposited data

Results flagged for a closer look

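Hey1, Dll1 and the second Notch1 probe set (162204_r_at) had TSA differences of one sign in both pairs of experiment 2 and of the other sign in both pairs of experiment 1. The difference between experiments was -1.56 for Hey1 (adjusted p = 0.299), -1.58 for Dll1 (adjusted p = 0.409) and -0.90 for Notch1 162204_r_at (adjusted p = 0.546) on the log2 scale by limma. Hey1 also had AzaC differences of one sign on the TSA background and of the other without TSA. They were 0.33 and 0.86 with TSA and -0.008 and -0.084 without, in experiments 2 and 1, so those without TSA were small. Its AzaC by TSA interaction was 0.64 (SE 1.00, adjusted p = 1.00), and 1 of the 7 probe sets and 10.9% of all tested probe sets had such signs.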

How the results depend on the processing

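None of the 7 probe sets of Notch1, Notch2, Dll1, Hes1 and Hey1 passed an adjusted p of 0.05 in any of the 10 comparisons under the 17 to 19 alternatives run for each, by limma. The mean over a gene's probe sets gives no value for single probe sets, and the block and the fit of only the groups compared were not run for every comparison. The lowest adjusted p was 0.0596, for Hey1 between experiments without the untreated array of experiment 1. Of 965 fits of the 5 genes, 901 had the same direction and 64 had the other sign, in values that had not passed to begin with. The counts of pathway genes moved more. Pairing the arrays by experiment (replicate block) gave 5 pathway genes in TSA against untreated cells, where the fit without it gave 1, 2 in AzaC/TSA against untreated cells and 1 in AzaC/TSA against AzaC cells, where it gave 0, and it changed no other such count by more than 1.5 times. In TSA against untreated cells the count was 2 with quantile normalization, with a floor at 20%, with a filter at 50% and with the mean over a gene's probe sets, 0 with only the groups compared, and 0 to 1 with 1 array left out. The pooled TSA count of 6 was 3 without an intensity trend and 1 to 5 with 1 array left out. The count of 1 between experiments was 0 with median centring, without a filter and without a trend, and 0 to 2 with 1 array left out. The number of probe sets tested was 7987 in the main fit and 6043 to 12422 over the alternatives. With all arrays kept, the calls ranged from 49 to 746 (AzaC/TSA against untreated) and 135 to 971 (TSA against untreated). They ranged from 45 to 744 (AzaC/TSA against AzaC), 672 to 1908 (TSA pooled) and 0 to 395 (between experiments). The other ranges were 0 to 13 (AzaC), 0 to 11 (AzaC/TSA against TSA and the interaction), 0 to 17 (AzaC pooled) and 0 to 6 (TSA by experiment). The upper ends for AzaC, AzaC/TSA against TSA, the interaction and AzaC pooled came without a filter, as did the 0 between experiments. The cause of these moves was not tested.

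The values with the other sign are all of genes that did not pass. With quantile normalization they were 0.010 (Notch2, AzaC/TSA against untreated), 0.00089 (Hes1, AzaC/TSA against TSA) and -0.00455 (Notch1, interaction). With median centring they were -0.062 (Dll1, TSA), -0.13 (Hes1, AzaC), 0.01 (Hes1, AzaC/TSA against TSA), 0.14 (Hes1, interaction) and -0.058 (Hes1, AzaC pooled). With an offset in place of the floor Dll1 had -0.030 with TSA. With the mean over a gene's probe sets Notch2 had -0.0078 (TSA), -0.37 (AzaC/TSA against AzaC), -0.36 (interaction), -0.19 (TSA pooled) and -0.13 (between experiments), and Notch1 -0.013 (interaction). With 1 array left out, Dll1 ranged from -0.33 to 1.21 (AzaC/TSA), -0.76 to 0.77 (TSA), -0.082 to 1.45 (AzaC), -0.90 to 0.41 (AzaC/TSA against AzaC), -1.02 to 0.52 (interaction) and -0.50 to 0.26 (TSA pooled). Hey1 ranged from -0.52 to 1.66 (AzaC/TSA), -0.85 to 0.81 (TSA), -0.24 to 0.15 (AzaC), -0.47 to 1.71 (AzaC/TSA against AzaC), -0.50 to 1.68 (AzaC/TSA against TSA), -0.45 to 1.73 (interaction), -0.25 to 0.84 (TSA pooled) and -0.27 to 0.82 (AzaC pooled). Hes1 ranged from -0.12 to 0.18 (AzaC), -0.24 to 0.21 (AzaC/TSA against TSA), -0.27 to 0.18 (interaction), -0.10 to 0.12 (AzaC pooled) and -0.34 to 0.046 (TSA by experiment). Notch1 ranged from -0.22 to 0.64 (TSA), -0.081 to 0.66 (AzaC/TSA against AzaC), -0.028 to 0.83 (AzaC/TSA against TSA) and -0.36 to 0.50 (interaction). Notch2 ranged from -0.44 to 0.36 (AzaC/TSA), -0.24 to 0.57 (TSA), -0.031 to 0.95 (AzaC/TSA against AzaC) and -0.20 to 0.78 (interaction). A group left with 1 array was assumed to vary like the others. Signals near the floor, as for Notch2 101342_at and Lfng, limit how large a decrease could be measured.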
